A study of Mus musculus with 28 samples.

Results

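MC38, a mouse colon adenocarcinoma line, was exposed to supernatant taken from a co-culture, and its RNA was set against that of untreated MC38 cells. The comparison rests on 4 of the 28 samples of the series, 2 libraries with supernatant and 2 untreated, chosen by their labels and read across all genes of the in vitro table. The same table holds 2 libraries each of MC38 given TNF, IFNG or both, and a second table holds MC38 alone and MC38 cultured with OT1 T cells (CD8 T cells with a transgenic receptor for an ovalbumin peptide) in the presence of an isotype or an anti-PD1 antibody, 3 libraries each. All groups are the same cell line grown in DMEM with 10% FCS. Cytokines and T cells were left on the cells for 6 h, whereas no exposure time is recorded for the supernatant, nor its dilution or the antibody present in the co-culture it came from. No group given another conditioned medium enters the comparison, so an effect of T cell products and an effect of spent medium cannot be told apart in these groups.

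Interferon gamma is a cytokine that activated CD8 T cells release. It binds a receptor that signals through the kinases JAK1 and JAK2 to factors that bind GAS elements in DNA and switch on IRF1, and a complex of STAT2 and IRF9 acts with IRF1 on ISRE elements. In tumour cells this programme is known for antigen presentation, chemokines that draw T cells, the checkpoint ligand PD-L1 and the guanylate binding and immunity related GTPases that attack intracellular pathogens. TNF, another T cell cytokine, acts mainly through NF-kB, and its targets include inhibitors of NF-kB itself such as Nfkbia. Zinc inside a cell is sensed by the factor MTF-1, which binds metal response elements and drives the metallothioneins and the zinc exporter ZnT1, encoded by Slc30a1.

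With supernatant, 57 of 12720 genes rose and none fell, which is 0.448% of the genes tested (limma, Benjamini-Hochberg adjusted p under 0.05; 443 higher and 209 lower at an unadjusted p under 0.05). The 57 rose by a median of 2.75 on the log2 scale (range 0.96 to 6.32), and 41 rose by at least 2. Among them were genes known from the interferon gamma response: 10 of 11 immunity related GTPases, 5 of 7 guanylate binding proteins, all 3 ligands of the receptor Cxcr3, and Stat2, Stat3, Irf1 and Irf9. All 3 listed genes of zinc handling, Mt1, Mt2 and Slc30a1, rose as well, and Slc30a1 was the 1 gene that also passed the test against IFNG. The lists were written with earlier results of these data known, so such counts are a description. The supernatant libraries lay above both untreated libraries in each of the 57, as they did for 17% of all genes tested, while they lay below them for 15%. The median difference of all genes was 0.01 and the median half-width of its 95% confidence interval 0.59, so a difference below about 0.59 lay within the interval of a typical gene. That interval is not adjusted for the number of genes tested, and no rise below 0.96 passed.

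**Figure D1:**
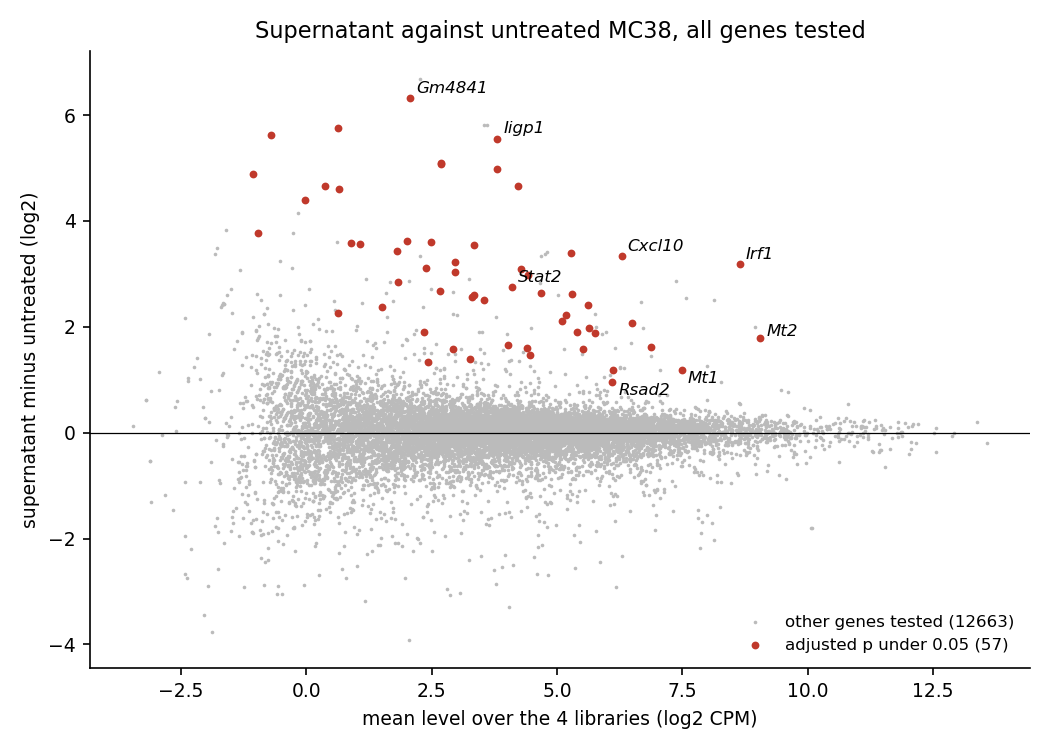
Each point is a gene, with the mean log2 CPM over the 2 untreated and 2 supernatant libraries on the horizontal axis and the log2 difference on the vertical axis. The 57 genes past the threshold (filled red) all lie above 0, between 0.96 and 6.32, and some genes with larger differences did not pass.

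Promoter stretches of risen genes are shown first, because the interferon and zinc responses are known to run through short DNA elements. RefSeq (GRCm38.p6) held a window from 250 bases before to 50 bases after the start for 41 of the 57 genes, 46 windows in all. A GAS-like pattern, TTCNNNGAA, was found in 9 of the 46 windows (19.6%), against 8.30% of all 32851 RefSeq windows and 6.66% of the windows of genes tested. An ISRE-like pattern, GAAANNGAA, was found in 21 of 46 (45.7%), against 8.56% and 6.95%. A kB-like pattern, GGGANTTTC, was found in 2 of 46 (4.35%), against 1.11% and 0.934%. Both strands were searched, patterns may overlap, and near-identical relatives such as the GTPases share sequence, so the windows are not independent. In the stretches below, which end before the transcript, the capitals mark the GAS-like or ISRE-like letters, read 5′ to 3′ along the gene's own strand.
Irf1, chr11:53769894-53769962, plus strand, a GAS-like match that begins 90 bases before the start: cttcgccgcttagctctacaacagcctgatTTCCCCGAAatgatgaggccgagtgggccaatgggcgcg
Igtp, chr11:58199481-58199555, plus strand, a GAS-like and an ISRE-like match: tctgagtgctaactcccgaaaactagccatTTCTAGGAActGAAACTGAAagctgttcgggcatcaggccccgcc
Tgtp2, chr11:49064244-49064323, minus strand, a GAS-like and an ISRE-like match: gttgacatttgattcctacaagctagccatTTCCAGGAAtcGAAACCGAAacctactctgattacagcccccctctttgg
Gbp7, chr3:142530254-142530322, plus strand, an ISRE-like match: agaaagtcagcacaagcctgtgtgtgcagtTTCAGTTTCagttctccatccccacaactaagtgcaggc
Cxcl10, chr5:92349064-92349132, minus strand, an ISRE-like match: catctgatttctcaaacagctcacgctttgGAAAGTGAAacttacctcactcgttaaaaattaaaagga
Cd274, chr19:29367332-29367400, plus strand, an ISRE-like match: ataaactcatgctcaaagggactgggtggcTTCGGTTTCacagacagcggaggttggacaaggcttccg
Socs1, chr16:10785575-10785649, minus strand, 2 overlapping ISRE-like matches: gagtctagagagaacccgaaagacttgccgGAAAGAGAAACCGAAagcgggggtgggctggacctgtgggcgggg
In Igtp and Tgtp2 the GAS-like and ISRE-like letters stand side by side with 2 bases between them. The Gbp7 window also holds GAS-like matches that begin 106 and 87 bases before the start. Its printed stretch leaves out the first and cuts the second, so neither is in capitals. A match describes letters in a window and is no evidence of binding.

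For the zinc genes the capitals mark the metal response element core, TGCACNC or TGCGCNC on either strand, a search added after their values had been seen.
Slc30a1, chr1:191906708-191906766, plus strand, a match that begins 43 bases before the start: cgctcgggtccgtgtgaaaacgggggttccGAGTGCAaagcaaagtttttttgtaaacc
Mt1, chr8:94179036-94179081, plus strand, a match that begins 23 bases before the start: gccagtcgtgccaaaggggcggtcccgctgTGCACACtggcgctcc
Mt2, chr8:94172368-94172604, plus strand, 3 matches: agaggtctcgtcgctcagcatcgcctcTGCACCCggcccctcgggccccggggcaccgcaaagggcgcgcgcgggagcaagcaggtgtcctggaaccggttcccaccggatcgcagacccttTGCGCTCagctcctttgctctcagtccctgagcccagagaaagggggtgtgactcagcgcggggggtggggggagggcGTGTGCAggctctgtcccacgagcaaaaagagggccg
These letters are common: 36.2% of the windows of genes tested and 25.7% of all windows hold the core at least once, and 13 of the 46 windows of risen genes (28.3%) do.

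Signal transducers and transcription factors are described first. Irf1, the transcription factor that carries much of the interferon gamma programme, stood at 7.04 and 7.07 log2 CPM in untreated cells and at 10.21 and 10.27 with supernatant. Its rise of 3.18 ± 0.12 (SE) on the log2 scale, 9.08-fold, had the smallest p of all genes (adjusted p = 1.38e-05, limma). Stat2 and Irf9, partners in the ISRE-binding complex, rose by 2.75 and 1.98. Stat2 measured 2.79 and 2.65 in untreated cells and 5.36 and 5.57 with supernatant (2.75 ± 0.18, adjusted p = 2.00e-04), without overlap. Stat3, which also serves the interleukin 6 family, rose by 1.62. The receptor chains Ifngr1 and Ifngr2 and the kinases Jak1 and Jak2 did not pass the test, with differences of 0.12 ± 0.32, 0.29 ± 0.25, 0.17 ± 0.18 and 0.03 ± 0.16. Among 8 interferon regulatory factors and their partner Batf2, the risen ones were Irf1, Irf9 and Batf2. Both untreated libraries had Batf2 at their lowest value (-3.44 and -3.60), against 1.94 and 2.29 with supernatant, so no fold is given.

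Of the 7 feedback inhibitors tested, Socs1 alone passed. Socs1, which blocks JAK kinases, measured 4.23 and 4.59 in untreated cells and 7.20 and 6.46 with supernatant, a rise of 2.41 ± 0.32 (adjusted p = 0.012). The call was lost in 5 of 18 alternative fits, among them those without the first supernatant library or without either untreated library (adjusted p up to 0.124). Usp18, which restrains the type I interferon receptor, differed by 1.50 ± 0.31 (adjusted p = 0.158), and Socs3 by 1.49 ± 0.56, with 3.72 and 2.06 in the supernatant libraries against 1.63 and 1.16. The replicates of the supernatant group thus stood 0.74 apart for Socs1 and over 1.6 apart for Socs3.

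The immunity related GTPases, which attack the vacuoles of intracellular parasites, had the largest median of the lists. Their median difference was 4.90, or 4.81 without F830016B08Rik, whose untreated libraries were both at the lowest value. Igtp rose from 1.83 and 1.94 to 6.35 and 6.73 (4.66 ± 0.19, 25.2-fold, adjusted p = 1.40e-05). Irgm1 rose by 3.54, and Irgm2 by 4.97 with a wide gap between its supernatant libraries, 6.91 and 5.66. Tgtp1 and Tgtp2 each rose by 5.09 and are near-identical copies, so reads could fall to either. Igtp and Irgm2 overlap on the same strand, and Olfr56, annotated as an olfactory receptor, spans Ifi47 and the Tgtp genes. Its rise of 4.40 may hold reads of theirs and is uncertain. Both untreated libraries of Olfr56 were within their 3 lowest values, the rise was 2.18 with a pseudocount of 1, and its adjusted p was 0.0592 when the 4 libraries were fitted alone. Gm12185 was the list member that did not pass (3.77 ± 0.80, adjusted p = 0.164). The calls of 9930111J21Rik2, F830016B08Rik and Gm4951 were lost when the 4 libraries were fitted alone. Over all alternative fits these calls were lost in 13 of 18, 9 of 17 and 4 of 18. Untreated levels were -0.89 and -3.60 for Gm4951, the latter at the lowest value, and 0.01 and -1.80 for 9930111J21Rik2.

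Guanylate binding proteins, which coat pathogen vacuoles and assist inflammasomes, rose by 2.57 to 3.63 in 5 cases. Gbp7 was the steadiest of them, at 3.61 and 3.55 untreated and 6.96 and 6.99 with supernatant (3.39 ± 0.16, adjusted p = 2.11e-05). Gbp2 rose by 2.97, Gbp2b by 3.63, Gbp3 by 2.57 and Gbp4 by 3.44. Gbp8 and Gbp9 differed by 1.91 ± 1.12 and 2.01 ± 0.46 and did not pass; Gbp4 overlaps both on the same strand, which leaves the split of reads among the 3 uncertain. Gm43302, in no list, overlaps Gbp6 and Gbp10 and rose by 2.69.

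The Cxcr3 ligands, which attract activated T cells, all rose. Cxcl10 went from 4.71 and 4.53 to 8.34 and 7.57 (3.34 ± 0.26, 10.1-fold, adjusted p = 4.42e-04), and Cxcl9 from 0.52 and 0.28 to 3.28 and 3.20 (2.84 ± 0.23). Cxcl11, which the annotation lists as a polymorphic pseudogene, went from -2.12 and -1.18 to 2.85 and 3.08 (4.61 ± 0.48, adjusted p = 0.00243), with the first untreated library within its 3 lowest values, and its rise was 2.72 with a pseudocount of 1. None of the 5 other chemokines tested passed. Ccl2 overlapped between the groups, with 6.43 and 6.92 untreated and 7.20 and 5.84 with supernatant, and Ccl5 differed by 0.17 ± 0.16 and Cxcl1 by -0.93 ± 0.52.

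In antigen presentation, 2 of 9 genes of peptide loading rose, Tap1 and Nlrc5. Tap1, which carries peptides into the endoplasmic reticulum, rose from 4.01 and 4.08 to 6.13 and 6.19 (2.11 ± 0.16, adjusted p = 4.42e-04). Nlrc5, the transactivator of MHC class I genes, rose by 2.38 ± 0.37 (adjusted p = 0.0328), a call lost in 12 of 18 alternatives, 9 of them with 1 library left out (adjusted p up to 0.35). None of 10 MHC class I chains passed, and their median difference was -0.14. H2-K1 measured 8.77 and 8.89 against 9.06 and 9.10 with supernatant (0.25 ± 0.24), and B2m 7.97 and 8.20 against 8.13 and 7.97 (-0.03 ± 0.15). The 95% interval of the B2m difference ran from -0.36 to 0.30. None of the 6 immunoproteasome and PA28 genes passed. Psmb9, an inducible proteasome subunit that overlaps Tap1 on the other strand, came nearest, with 3.24 and 3.48 against 4.76 and 4.37 (1.20 ± 0.22, adjusted p = 0.0875). The other transporter subunit, Tap2, had 5.67 and 3.08 in the supernatant libraries. The first lay between its untreated 5.14 and 5.88, and the second lay below both.

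Cd274, which encodes PD-L1, was the single checkpoint ligand of 7 that rose. It measured 1.01 and 1.69 untreated and 5.15 and 4.02 with supernatant (3.23 ± 0.38, 9.39-fold, adjusted p = 0.00509). Without the first untreated library the difference was 2.89 and no longer passed (adjusted p = 0.0509), nor did it pass when the 4 libraries were fitted alone (adjusted p = 0.0915).

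Of genes better known from type I interferon, 3 of 26 passed, against 0.448% of all genes tested. They were Rtp4 (2.63 ± 0.23), Samhd1, which degrades the building blocks of viral DNA (1.19 ± 0.12), and Rsad2, an antiviral enzyme (0.96 ± 0.15). At an unadjusted p under 0.05, 17 of the 26 were higher, against 443 of all 12720 genes, and the median difference of the list was 1.01. Rsad2 went from 5.73 and 5.51 to 6.59 and 6.57, the smallest rise among the 57, and its call was lost in 12 of 18 alternatives, 8 of them with 1 library left out (adjusted p up to 0.385). Isg15, a ubiquitin-like modifier, measured 5.79 and 5.90 against 5.95 and 5.99 (0.12 ± 0.15), and Bst2 differed by 0.18 ± 0.31. Ifit3 had 2.00 and 1.50 against 3.34 and 3.52 (1.68 ± 0.33, adjusted p = 0.124). Among 12 sensors of nucleic acids Ifi203 (2.50) and Ifi205 (1.90) rose, both of the PYHIN family, and 11 were higher at an unadjusted p under 0.05. Parp14, an ADP-ribosyltransferase, rose by 3.09, and the partners Parp9 and Dtx3l, which overlap on opposite strands, by 1.65 and 1.58. The calls of Parp9 and Dtx3l were lost in 5 and 8 of 18 alternatives. None of 12 TRIM and related genes passed, although 10 were higher at an unadjusted p under 0.05 and their median was 0.79.

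**Figure D2:**
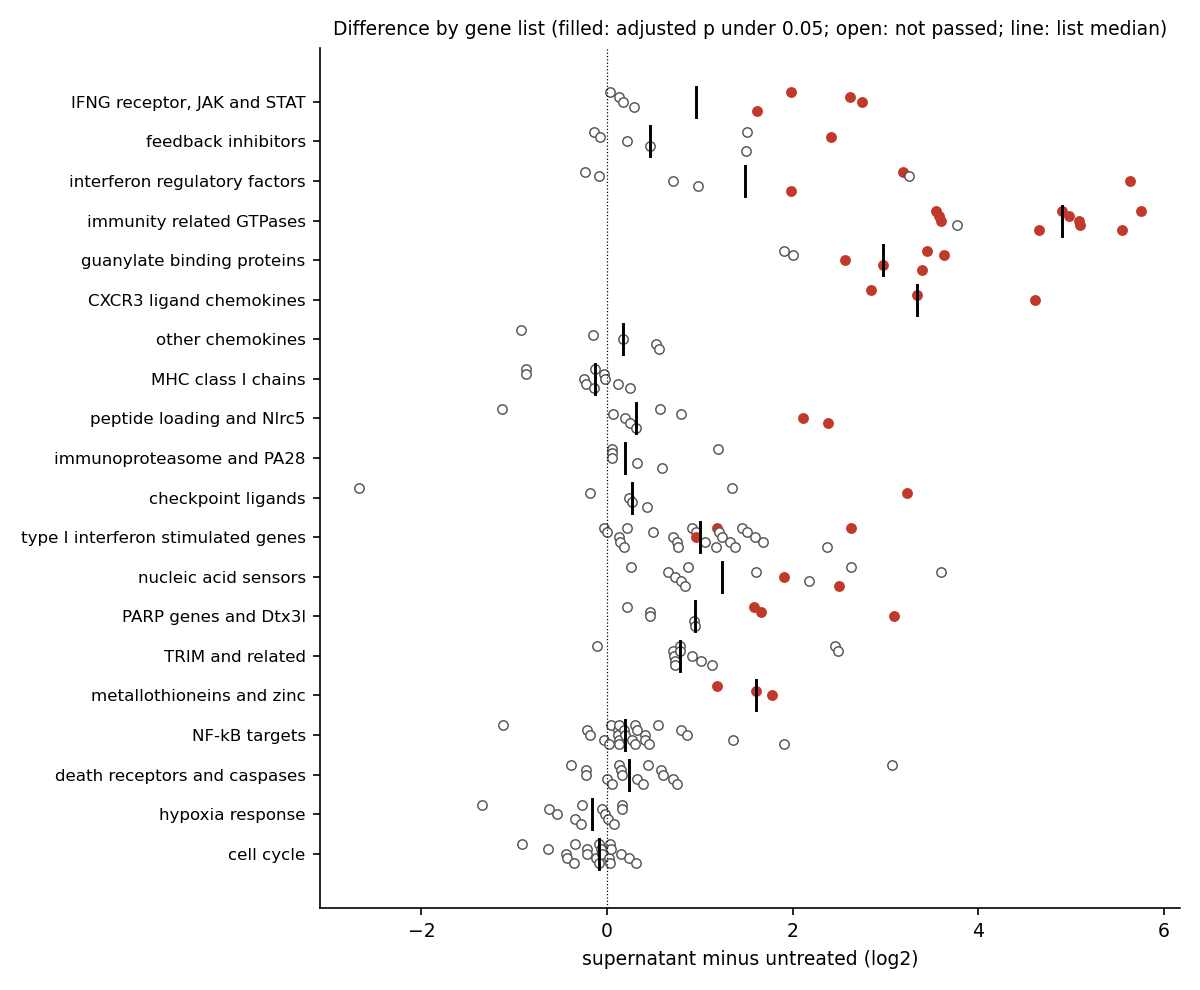
Each circle is a tested gene of a list, placed by its log2 difference between supernatant and untreated, filled where the adjusted p is under 0.05 and with the list median as a bar. The GTPase lists and the Cxcr3 ligands lie furthest to the right, and MHC class I chains, hypoxia and cell cycle genes have medians just below 0.

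Among the risen genes, 18 were in no list. Of the 57, Gm4841 rose most, from -1.30 and -0.87 to 5.20 and 5.27 (6.32 ± 0.31, adjusted p = 2.11e-05), although its first untreated library was within the 3 lowest values there. Rnf19b, a ubiquitin ligase, rose from 5.49 and 5.43 to 7.32 and 7.74 (2.07 ± 0.17), Ifi211, a PYHIN gene, by 1.88, Irak2, a kinase of interleukin 1 and Toll-like receptor signalling, by 3.11, and Cyp26b1, which degrades retinoic acid, from 4.29 and 3.86 to 6.16 and 6.42 (2.22 ± 0.20). Tubb3, a tubulin best known from neurons, went from 1.01 and 1.88 to 4.33 and 4.62 (3.03 ± 0.37). Crem, a factor of cAMP responses, rose by 1.90, Apol6 by 3.57 (2.35 with a pseudocount of 1), Slfn2, a Schlafen gene, by 1.58, and Mtfr2, tied to mitochondrial fission, by 1.39. The calls of Tubb3, Crem, Apol6, Slfn2 and Mtfr2 were lost in 1, 5, 3, 4 and 6 of 18 alternatives. Gm12250 is annotated as a processed pseudogene and is uncertain for that reason. Both its untreated libraries were within their 3 lowest values, and its rise was 4.66, or 2.58 with a pseudocount of 1. AA467197, Samd9l, Slamf8 and Ly6c1 had adjusted p-values of 0.0328 to 0.0471, and they were lost in 8, 12 and 13 of 18 alternatives and, for Ly6c1, in 13 of 17. By position (GENCODE M21, GRCm38), 12 of the 57 lie on chromosome 11, and 4, namely Gm4951, Gm4841, F830016B08Rik and Iigp1, lie beside each other on chromosome 18 between 60212080 and 60392634.

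Genes of zinc handling formed the second group. Slc30a1, the exporter that moves zinc out of the cell, measured 3.63 and 3.58 in untreated cells and 5.17 and 5.25 with supernatant. The rise of 1.60 ± 0.17, 3.04-fold, had an adjusted p of 0.00245 (limma), which was 0.0535 when the 4 libraries were fitted alone. In the 6 libraries given cytokines it lay between 3.11 and 3.48, below every untreated library. Mt2, a metallothionein that binds zinc and copper, rose from 8.22 and 8.11 to 10.15 and 9.74 (1.78 ± 0.18, 3.43-fold, adjusted p = 0.00196), and Mt1 from 6.94 and 6.87 to 8.09 and 8.08 (1.18 ± 0.13, 2.27-fold, adjusted p = 0.00426). In the IFNG libraries Mt2 stood at 8.69 and 8.93 and Mt1 at 7.38 and 7.48, between untreated and supernatant. The composition of the medium in the supernatant, metals included, is not recorded, and its part in these rises was not tested.

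**Figure D3:**
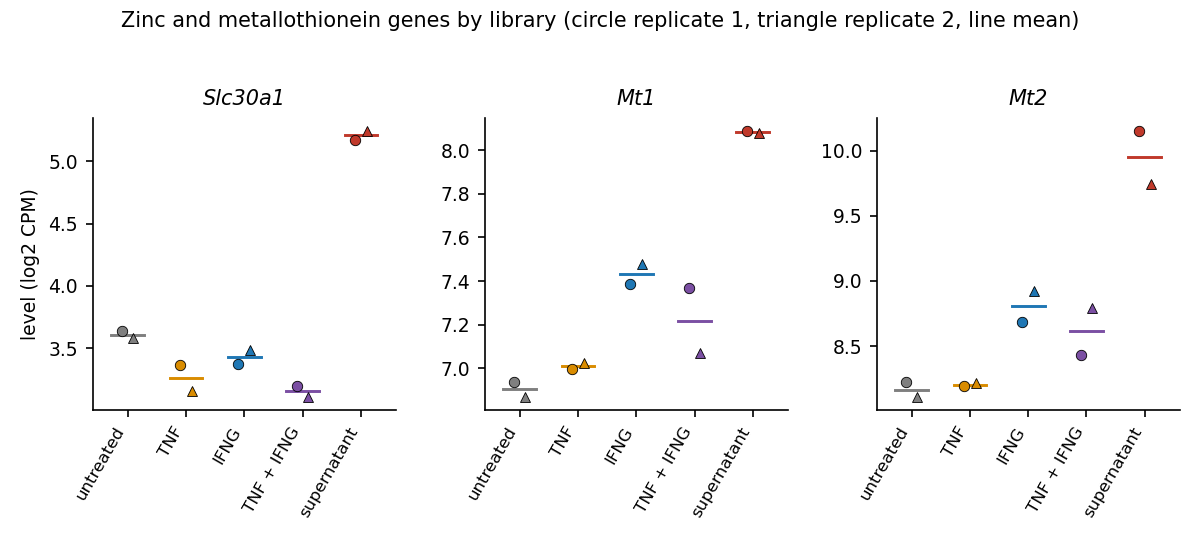
Levels in log2 CPM of Slc30a1, Mt1 and Mt2 in each library of the 5 in vitro groups, with circles and triangles for replicates 1 and 2 and a line at the mean; the vertical axes do not start at 0. The supernatant libraries are the highest for all 3 genes, and Slc30a1 is lower with each cytokine treatment than in untreated cells.

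Only 0.448% of all genes tested passed, so a list of 8 to 25 genes may hold none by that share alone. Several other lists held no gene past the threshold. These were NF-kB targets (0 of 25, median 0.19), genes responsive to interleukin 17 and STAT3 (0 of 10, median 0.56), death receptors and caspases (0 of 16), pyroptosis and necroptosis (0 of 8, median 0.70), immediate early genes (0 of 14), hypoxia response (0 of 12), glycolysis (0 of 13), ATF4 targets (0 of 13), cholesterol synthesis (0 of 16), p53 targets (0 of 9) and cell cycle (0 of 20). At an unadjusted p under 0.05, 4 of the 8 pyroptosis and necroptosis genes, 4 of the 10 interleukin 17 and STAT3 genes, 4 of the 25 NF-kB targets and 3 of the 16 death receptor and caspase genes were higher. Of all genes tested, 443 of 12720 were higher at that unadjusted p. Both supernatant libraries lay above both untreated libraries for 7, 6, 13 and 8 genes of these lists, and for 17% of all genes tested. Nfkbia, the inhibitor that NF-kB induces, measured 7.87 and 7.79 untreated, 8.19 and 8.08 with supernatant, and 11.28 and 11.18 with TNF. Bcl3 (1.91 ± 0.39, adjusted p = 0.15) and Nfkbiz (1.35 ± 0.23, adjusted p = 0.0582) had the largest differences of the NF-kB list and sit in the interleukin 17 and STAT3 list too. Fas, a death receptor, differed by 0.39 ± 0.40, and Tnfsf10, its relative's ligand TRAIL, by 3.07 ± 0.74 from untreated values of -2.12 and -3.60 (adjusted p = 0.297). Ldha of glycolysis differed by 0.16 ± 0.12 and Mki67 of the cell cycle by 0.31 ± 0.17.

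No gene fell, and the 10 lower genes with the smallest p had adjusted p-values from 0.15 to 0.432. They were mt-Tm, Rpl19-ps11, Gm5436, Plk2, Nup153, Osr1, Ddit4, Bdnf, Ankrd37 and Gm21967. Plk2, a kinase induced by p53 and growth factors, measured 5.34 and 5.59 untreated and 4.62 and 3.63 with supernatant (-1.34 ± 0.29). Ddit4, an inhibitor of mTOR that rises in hypoxia and stress, measured 5.85 and 5.64 against 4.73 and 4.80 (-0.98 ± 0.24). Ankrd37, a hypoxia target, measured 2.93 and 3.25 against 2.20 and 1.29 (-1.35 ± 0.35). The libraries did not overlap for any of these 3, but the genes were picked by their p in this same comparison. Supernatant lay below untreated without overlap for 15% of all genes tested. When a library was left out, genes lower with supernatant did pass: 18 without the first supernatant library and 6 without the second.

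Set directly against IFNG, 1 of 12720 genes passed (0.00786%; 164 higher and 182 lower at an unadjusted p under 0.05), and that gene was Slc30a1 (1.78 ± 0.17, adjusted p = 0.0371, limma). Its difference kept a size of 1.69 to 1.84 over 18 alternatives, but its adjusted p ran from 0.0243 to 0.276 and passed in only 6 of them. The count was 2 and 7 without the first or second IFNG library, 3 and 12 without the first or second supernatant library, and 0 without any 1 library that held TNF. Mt2 was next by p (1.14, 95% interval 0.73 to 1.55, adjusted p = 0.728). The 57 genes were chosen for high supernatant values, which by itself favours differences above 0, so their values against IFNG are a description. Their median was 0.17, 46 lay above 0 (37 without the second supernatant library), 49 lay within 0.5 of IFNG, and for 37 the 95% interval of the difference stayed within 1 in both directions. Igtp (0.03), Irgm1 (0.06) and Cyp26b1 (-0.01) were among the closest. The upper end held Cxcl11 (1.82, interval 0.73 to 2.92; 2.85 and 3.08 with supernatant, 1.05 and 1.23 with IFNG), Socs1 (0.87, interval 0.14 to 1.60), Cxcl10 (0.68, interval 0.08 to 1.27), Mt1 (0.65, interval 0.35 to 0.96), Rnf19b (0.64, interval 0.27 to 1.02) and Cxcl9 (0.58, interval 0.07 to 1.09). None of these 6 passed after adjustment (adjusted p = 1.00). With TNF alone, Rnf19b measured 6.86 and 6.92, against 5.49 and 5.43 untreated. Cxcl10, Cxcl11 and Socs1 were also higher in both TNF libraries than in both untreated ones. Mt1 was so by a small margin (7.00 and 7.02 against 6.94 and 6.87). Cxcl9 was lower (-0.40 and -0.16 against 0.52 and 0.28). The share of all genes higher with TNF in this way was not counted, and a part of TNF in these differences was not tested.

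**Figure D4:**
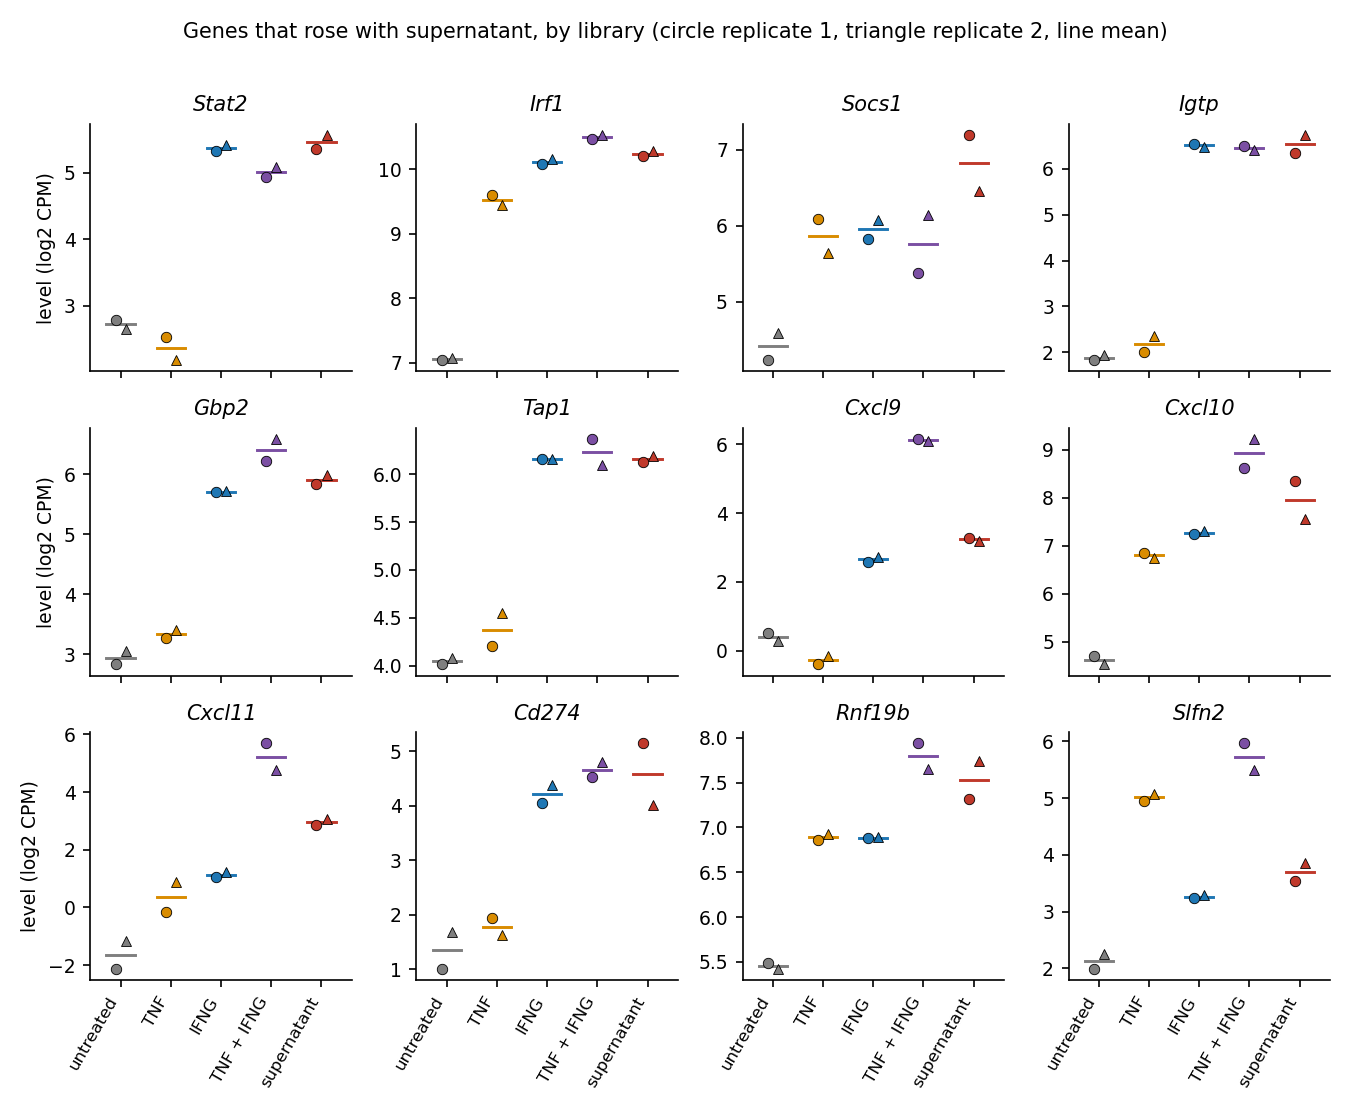
Levels in log2 CPM of 12 risen genes in each in vitro library, with circles and triangles for replicates 1 and 2 and a line at the mean; the vertical axes do not start at 0. Stat2, Igtp, Gbp2 and Tap1 stand near their IFNG level with supernatant, whereas Cxcl9, Cxcl11 and Slfn2 stand between IFNG and both cytokines together.

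Against TNF and IFNG together, 30 genes passed (0.236%), 22 lower and 8 higher with supernatant. The lower genes were led by NF-kB targets, 5 of 25. Nfkbia stood at 8.19 and 8.08 with supernatant and at 11.01 and 10.69 with both cytokines (-2.72 ± 0.14, adjusted p = 2.30e-04, limma). Ier3, a stress-induced survival gene, was lower by 2.05 log2 units and Nfkbie, another NF-kB inhibitor, by 2.88, beside Tnip1 and Vcam1. Cxcl9 was at 3.28 and 3.20 against 6.15 and 6.11, a difference of -2.89 ± 0.23 (adjusted p = 0.00247), although it had risen with supernatant. Ccl5 (-1.88), Slfn2 (-2.02), Il2 (-3.78), Extl1 (-2.27) and Il4ra, a receptor chain for interleukin 4 (-1.85), were lower too. Slc30a1 (2.05 ± 0.17, adjusted p = 0.00287) and Mt2 (1.33 ± 0.18, adjusted p = 0.0316) were higher, as was Ier5l (1.77). For Irf1 (-0.26), Stat2 (0.46), Igtp (0.10), Tap1 (-0.07) and Cd274 (-0.08) the difference did not pass, and 4 of the 57 passed in all. The count of 30 depended on single libraries: it was 486 without the second supernatant library, 255 without the first library of both cytokines, 18 without the first supernatant library and 19 without the second library of both cytokines. With any 1 untreated, TNF or IFNG library left out it was 12 or 13. The second library of both cytokines was the shallowest of the table, at about 3360000 reads.

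In the co-culture table, an independent set of libraries with its own controls, MC38 with OT1 T cells and the isotype antibody was set against MC38 alone. There 971 of 12707 genes were higher (7.64%). All 57 genes were tested in it, and 54 of them rose, which is 94.7% of the 57 and 6.16% of the 876 co-culture-raised genes that were tested in both tables, where 7.20% of all 12165 shared genes rose. The median difference of the 57 was 3.24, and 36 differed more in the co-culture than with supernatant. Cxcl9 stood at -1.03, 0.03 and 2.04 in MC38 alone and at 9.07, 9.35 and 9.08 in co-culture (8.82 ± 0.58), and Rsad2 at 7.99, 7.93 and 8.29 against 11.50, 11.27 and 11.22 (3.26 ± 0.13, beside 0.96 with supernatant). Stat2 (0.90), Rtp4 (0.92) and Irf9 (0.62) differed less than with supernatant; their levels in MC38 alone, normalised separately, were 4.83 to 5.00, 6.01 to 6.63 and 6.32 to 6.55. Whether these differences differ between the tables was not tested.

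The 3 that did not pass were Mtfr2 (0.95, adjusted p = 0.0761), Ly6c1 (0.66, adjusted p = 0.305) and Slc30a1. Slc30a1 measured 1.24, 1.08 and -1.36 in MC38 alone and 0.03, -1.63 and -1.12 in co-culture, a difference of -1.23 ± 0.81 (adjusted p = 0.355) with overlapping groups, or -2.07 (adjusted p = 0.0626) without the third library of MC38 alone. Mt2 rose there from 8.13, 7.81 and 8.51 to 10.44, 10.22 and 10.47 (2.23 ± 0.17, adjusted p = 1.82e-05), and Mt1 by 0.59 ± 0.14 (adjusted p = 0.0172), a call lost when any 1 isotype library was left out. All 3 zinc genes rose with supernatant, whereas in co-culture the metallothioneins rose and Slc30a1 did not pass at its low level. Some lists with no gene passed with supernatant held genes that rose in co-culture, where 7.64% of all genes were higher. These were 19 of 25 NF-kB targets, 5 of 5 other chemokines, 4 of 10 MHC class I chains and 6 of 6 immunoproteasome genes, among others. Other such lists did not rise as a whole. Of 12 hypoxia genes 1 was higher and 7 lower, of 13 glycolysis genes 0 and 2, of 16 cholesterol genes 1 and 3, and of 20 cell cycle genes 2 and 0.

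T cell markers were higher in the co-culture libraries. Of 12 T cell markers, 9 are in the co-culture table, with a summed level of 130 to 158 CPM in the isotype libraries and 2.51, 2.77 and 40.3 CPM in MC38 alone, where that of replicate 3 stands apart and is also the shallowest. In bulk RNA, more T cells and more RNA per T cell cannot be told apart, and the part of T cell RNA in the co-culture values was not tested. Without that library 56 of the 57 rose, and over every library left out in turn the count was 52 to 56. In the in vitro table Lck is the single T cell marker, at 0.109 and 0.709 CPM with supernatant and 1.01 and 0.979 CPM untreated, and Cd3d, Cd8a and Ptprc are not listed in it. Macrophage markers (3 of 6) summed to 3.20 and 5.01 CPM with supernatant and 4.19 and 3.39 CPM untreated. Of 6 epithelial markers Cdh1 alone is listed there, at 0.337 and 0.369 CPM with supernatant and 0.697 and 2.08 CPM untreated, and the 5 listed in the co-culture table, Krt8, Krt18, Krt19, Epcam and Cdh1, summed to 2.65 to 11.9 CPM in MC38 alone. Of 5 fibroblast markers 3, Col3a1, Pdgfra and Pdgfrb, summed to 87.8 to 101 CPM in the untreated and supernatant libraries.

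**Figure D5:**
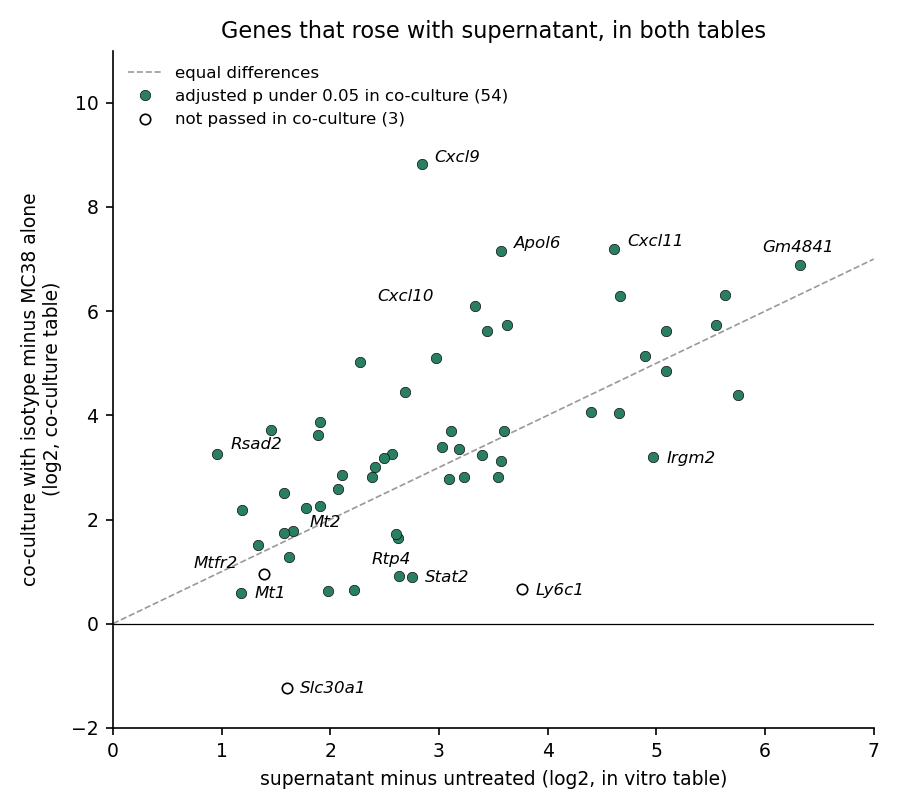
For each of the 57 genes that rose with supernatant, the log2 difference in the in vitro table (horizontal) against that of MC38 with OT1 T cells and isotype minus MC38 alone in the co-culture table (vertical); the dashed line marks equal differences. All but Slc30a1 lie above 0, and 36 lie above the dashed line.

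Depth was implied from the steps of low values, at about 6490000 and 7690000 assigned reads for the untreated and 10400000 and 8090000 for the supernatant libraries, within a range of 3360000 to 11200000 over the in vitro table. Of the 57 genes, 9 had at least 1 untreated library within the 3 lowest values that library holds, and Batf2, F830016B08Rik, Gm12250, Olfr56 and Ly6c1 had both. Whether replicates came from separate cultures is not stated, and the spread behind each p-value may therefore be technical.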

How the data were processed

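RNA of MC38 was read from transcript 3' ends (QuantSeq libraries, NucleoSpin RNA, per the labels' protocols). The submitters' processing notes list GRCm38, mm10, cutadapt 1.7, FastQC, HISAT2, Subread, featureCounts and limma. No source used here gives the strand setting. Values as deposited by the authors are log2 CPM with near-identical distributions in every library, which hide any shift common to most genes. All 10 in vitro libraries (5 groups of 2) and, separately, all 9 co-culture libraries were fitted with limma 3.58.1 in R 4.3.3 (empirical Bayes with a trend, 5 and 6 residual degrees of freedom). Genes at log2 CPM of at least 0 in 2 (in vitro) or 3 libraries entered, which removed 0 of 12721 and 239 of 12948; 1 and 2 constant genes were dropped. P-values are 2-sided, adjusted by Benjamini-Hochberg over all genes tested, with a threshold of 0.05. Of the in vitro names, 15 had become dates and were tested, not named. The third anti-PD1 library, titled untreated, was placed by its description, and an isotype library is described with OT2. The anti-PD1 libraries enter only through the spread of the co-culture fit. Named were the 30 genes of smallest p, list members, the 10 lower genes of smallest p and the 10 of smallest p past the threshold against IFNG and against both cytokines, plus risen genes in no list. Genes, lists and tests were chosen with earlier results of these data known. The fit was tested on simulated data. The metal response element search and the co-culture count of the risen genes under each alternative were added after seeing the data. Positions are from GENCODE M21 and promoters from RefSeq GRCm38.p6. Alternatives changed the filter, a pseudocount of 1, centring, the trend, the groups fitted, library weights, a replicate block and single libraries. One item of the lists, and a risen gene in no list whose reads could be shared with it, are not reported here.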

Additional observations from a re-analysis of the deposited data

How the results depend on the processing

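Over 18 alternatives the count of 57 genes with supernatant was 36 when only the 4 libraries were fitted, 50 with the replicate block and 51 to 57 under the others that kept all libraries, and it ran from 46 to 65 when a library was left out. Of the 57, 31 passed under every alternative and 26 were lost under at least 1; none changed direction. Same-numbered untreated and supernatant libraries did not deviate together (correlation -0.028 over 6158 genes with mean log2 CPM above 4). The values thus showed no pairing by number, and the block is an alternative only. This correlation cannot show whether same-numbered samples were handled together. The count against IFNG, 1, was 0 without the trend, 2 with only the compared groups fitted, 0 with the replicate block, and 0 to 12 with a library left out (12 without the second supernatant library). The count against both cytokines, 30, was 4 with only the compared groups fitted, 6 with library weights, 16 with the replicate block and 12 to 486 with a library left out. The co-culture count of 1761 genes changed in either direction was 1008 to 2218 with a library left out and 1562 without the third anti-PD1 library. Causes were not tested. Median centring moved no library by more than 0.0024. The median interval half-width of 0.59 is not adjusted for the number of genes tested. The smallest rise that passed was 0.96, and larger differences such as that of Ifit3 (1.68, adjusted p = 0.124, limma) did not. With 2 libraries a group, a gene that did not pass may still have changed. Values within the 3 lowest of a library rest on the fewest reads.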
